A study of Mus musculus with 2 samples.

Results

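Fibroblasts, the epicardium and the interstitial cells of the valves build and keep the extracellular matrix of the heart. The 51 genes described here were taken by symbol from a list of such genes: matrix proteins, fibroblast surface proteins and regulators, and genes of the mesothelial layer that covers the heart. They are 51 of the 55536 annotated genes in the gene tables, of which 22028 are protein coding, and they lie on 16 chromosomes. The measurements are total RNA-seq with ribosomal RNA reduced, on 2 hearts of 2-month-old males of B6CASTF1/J, a stock of The Jackson Laboratory. B6CASTF1/J is an F1 hybrid of the C57BL/6J and CAST/EiJ strains, and the tables refer to the mm10 genome, which was built from C57BL/6J. A Norgen kit for animal tissue gave the RNA, 300 ng entered each library, and ERCC spike-in RNAs were added. Both libraries carry the same donor entry in the labels, while the males and their biological replicates have separate numbers. They are called mouse 1 and mouse 2 after those replicate numbers, and the ratios given are mouse 1 over mouse 2. No other strain, age, sex or treatment enters, so levels and the spread between the 2 mice are described and no condition is tested.

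Cardiac fibroblasts lie between the cardiomyocytes and secrete collagens, proteoglycans, elastic fibre proteins and matricellular proteins, which bind cells and growth factors without being load-bearing fibres. The epicardium is a mesothelium, a single sheet of epithelial cells that lines the outer surface, and in the embryo it gives rise to many of the heart's fibroblasts. Several of the genes are not restricted to these cells: Sparc, Sparcl1, Mgp, Vim, Lrp1 and Gsn are also known from endothelial, smooth muscle or other cells. The tissue is bulk, so fewer cells of a type and less RNA per cell cannot be told apart.

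The gene tables held 39177981 expected counts for mouse 1 and 44544839 for mouse 2, spike-ins included. An expected count is the number of reads a quantifier assigns to a gene, and TPM, the deposited per-length unit, divides it by length and scales it to the same total in every library, so TPM levels of different genes can be set side by side. After TMM scaling of the counts, the common biological coefficient of variation between the libraries was 6.63% over 15170 genes. Cardiomyocyte genes were the highest of the other cell type lists examined, with Myl2 at 7631 and 8510 TPM and Myh6 at 7294 and 8105 TPM in mice 1 and 2. The libraries differed in red blood cell genes: all 4 of that list were over 2-fold higher in mouse 1, with a summed level of 13712 TPM against 4292 TPM in mouse 2.

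Of the 51 genes, 49 had at least 1 TPM in both mice. The same threshold was met by 49.8% of all protein-coding genes and by 21.5% of all annotated genes. The median member stood at 8.08 TPM in mouse 1 and 8.95 TPM in mouse 2, a mean of 8.52 ± 0.615 (SD, n = 2), against a median of 8.74 TPM over the 10970 protein-coding genes that met the threshold. The members' median takes in the 2 that missed the threshold, so the 2 medians are not filtered alike. The median member lay near the middle of the detected protein-coding genes, but the levels within the set were wide. By their mean, 4 members reached 100 TPM, 20 lay between 10 and 100 TPM, 25 between 1 and 10 TPM, and 2 were under 1 TPM. The 4 highest, Gsn, Mgp, Dcn and Sparc, made up 51.5% of the members' summed TPM in mouse 1 and 51.1% in mouse 2. The sum itself was 1428 TPM in mouse 1 and 1507 TPM in mouse 2, which was 0.370% and 0.382% of the TPM of nuclear protein-coding genes.

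**Figure D1:**
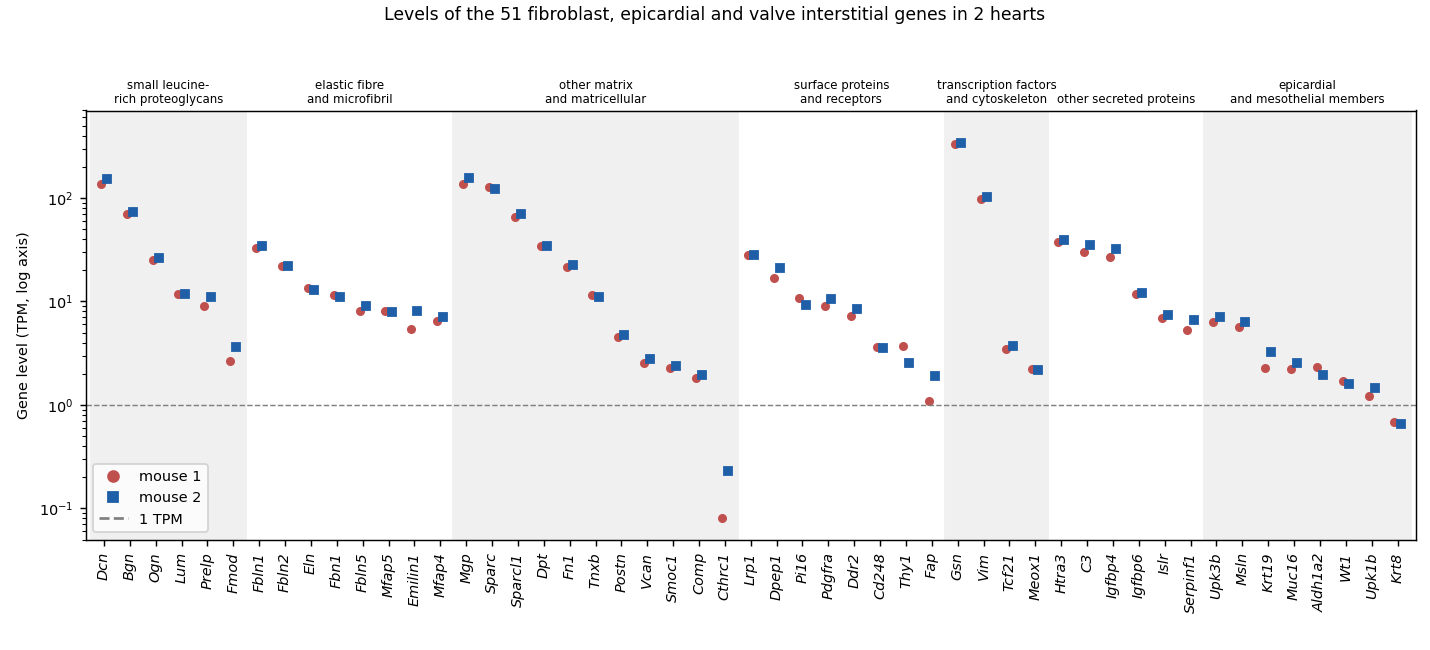
Level of each of the 51 members in TPM on a log axis, grouped by role and sorted by mean within each group; circles are mouse 1, squares are mouse 2, and the dashed line is 1 TPM. The points of the 2 mice lie close together for most genes, Gsn stands highest at 333 and 336 TPM, and Krt8 and Cthrc1 lie under the line.

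Small leucine-rich proteoglycans are short core proteins that bind collagen fibrils and set their thickness and spacing, and all 6 of those listed were detected. Dcn (decorin) led with 137 TPM in mouse 1 and 154 TPM in mouse 2, which placed it above 96.3% of the detected protein-coding genes. Bgn (biglycan), its closest relative, had 69.2 and 72.8 TPM. Ogn (osteoglycin) had 25.2 and 26.4 TPM, and Lum (lumican) had 11.7 and 11.9 TPM. The order of these 4 was the same in both mice, with no overlap between neighbours. Prelp, a proteoglycan of basement membranes and connective tissue, had 9.04 and 11.1 TPM, and Fmod (fibromodulin) was lowest at 2.66 and 3.61 TPM. Within a mouse, Dcn stood 2.05 ± 0.0907 times above Bgn, 5.63 ± 0.255 times above Ogn, 12.3 ± 0.862 times above Lum and 47.0 ± 6.37 times above Fmod (SD, n = 2). With 2 mice the smallest p that a 2-sided exact paired test can give is 0.5, so the order is a description. Dcn and Lum are neighbours on chromosome 10, where Dcn spans 97479609 to 97518143 and Lum starts at 97565128 in mm10, leaving 46984 bases between them. Prelp and Fmod lie 115839 bases apart on chromosome 1. Both neighbouring pairs thus differed in level, the first by more than the second.

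Start regions from RefSeq were matched for 32 of the 51 genes, as 250 bases before to 50 bases after the start in GRCm38.p6, the assembly of mm10. Those of Bgn and Ogn are shown because these proteoglycans stand next to each other in level and carry different short motifs. Capitals mark CAGCTG (its own reverse complement, the core of an E-box), GGGCGG with its reverse CCGCCC (a GC box), TATAAA with its reverse TTTATA, and GGAATG with its reverse CATTCC (the core bound by TEAD factors); where 2 matches overlap they form 1 run of capitals. Bgn lies at chrX:73483351-73483650 and Ogn at chr13:49607765-49608064, both on the plus strand.
Bgn: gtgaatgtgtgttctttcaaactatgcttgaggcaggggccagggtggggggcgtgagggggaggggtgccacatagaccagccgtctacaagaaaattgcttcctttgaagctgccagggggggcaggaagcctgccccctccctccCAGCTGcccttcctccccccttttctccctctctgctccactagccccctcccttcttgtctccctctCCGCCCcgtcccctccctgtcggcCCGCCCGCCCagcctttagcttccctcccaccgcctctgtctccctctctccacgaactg
Ogn: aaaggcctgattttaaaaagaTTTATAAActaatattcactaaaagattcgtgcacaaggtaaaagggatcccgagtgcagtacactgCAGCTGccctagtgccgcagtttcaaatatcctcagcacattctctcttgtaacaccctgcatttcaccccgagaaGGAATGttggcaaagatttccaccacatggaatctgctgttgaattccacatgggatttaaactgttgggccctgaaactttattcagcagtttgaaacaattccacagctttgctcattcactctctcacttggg
The Bgn stretch held the E-box core and the GC box, and the Ogn stretch held the E-box core, TATAAA and the TEAD core. On either strand, CAGCTG was found in 12 of the 32 member stretches (37.5%), against 16.3% of all 32851 RefSeq start stretches. TATAAA was found in 9 (28.1%, against 13.6%), CCAAT, whose reverse is ATTGG, in 11 (34.4%, against 37.4%), GGGCGG in 7 (21.9%, against 35.7%) and GGAATG in 3 (9.38%, against 14.7%). The median GC content was 54.5% in the member stretches and 52.7% in all. For 20 of the 32 the RefSeq start lay within 50 bases of the start of the gene's highest GENCODE transcript. The sets are not alike: each member enters with 1 stretch, the one nearest that transcript start. The 32851 stretches include alternative starts and were not limited to genes detected in the heart. These matches are letters in a window and not measured binding sites.

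Elastic fibres consist of an elastin core laid on fibrillin microfibrils, joined by fibulins and other binding proteins. All 8 of the genes listed for them were detected, and their levels lay between 5.39 and 34.1 TPM. Fbln1 (fibulin-1) led with 33.1 TPM in mouse 1 and 34.1 TPM in mouse 2, followed by Fbln2 with 21.9 and 21.8 TPM. Fbln5, the fibulin needed for elastic fibre assembly, had 8.08 and 8.95 TPM. The 3 fibulins kept this order in both mice, and Fbln1 stood 1.54 ± 0.0321 times above Fbln2 and 3.95 ± 0.208 times above Fbln5 (SD, n = 2). Eln (elastin) had 13.4 and 12.8 TPM and Fbn1 (fibrillin-1), the main microfibril protein, 11.6 and 11.1 TPM, a ratio of 1.16 ± 0.000910 between them. By counts the order is the other way, since Fbn1 is the longer transcript, with 3104 and 3081 expected counts against 1387 and 1504 for Eln. Mfap5 and Mfap4, microfibril-associated proteins, had 7.99 and 7.84 TPM and 6.44 and 7.06 TPM. Emilin1, an elastin-associated glycoprotein, had 5.39 and 8.11 TPM, so that its 2 values enclosed both of those of Mfap4 and of Mfap5.

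Of the other matrix and matricellular genes, 10 of 11 were detected. Mgp, matrix Gla protein, an inhibitor of calcification, had 138 TPM in mouse 1 and 157 TPM in mouse 2. Sparc, a collagen-binding matricellular protein, had 127 and 123 TPM, and its relative Sparcl1 had 64.9 and 69.7 TPM. These 3 did not overlap, and Sparc stood 1.86 ± 0.141 times above Sparcl1. Dpt (dermatopontin), which binds decorin, had 34.0 and 34.2 TPM, Fn1 (fibronectin) 21.3 and 22.3 TPM and Tnxb (tenascin-X) 11.4 and 11.1 TPM. Tnxb is 1 of the 2 members, with Krt8, whose expected counts were not whole, as happens where a quantifier divides reads between genes, so its level is less certain. Postn (periostin), known for its rise in activated fibroblasts after injury, had 4.5 and 4.75 TPM, and Sparc stood 27.1 ± 1.74 times above it. Vcan (versican), Smoc1 and Comp lay between 1.81 and 2.78 TPM. Cthrc1, a gene known from activated fibroblasts of injured hearts, was the lowest of all members, at 0.0800 and 0.230 TPM, from 2 and 6 expected counts. A floor of 3 counts per library was used, and Cthrc1 was under it in mouse 1 and just above it in mouse 2.

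Among the surface proteins and receptors all 8 were detected, and none reached 100 TPM. Lrp1, a large endocytic receptor, led with 28.2 and 28.4 TPM in mice 1 and 2. Dpep1, a membrane dipeptidase, had 16.7 and 21.1 TPM, and Pi16, a marker of a fibroblast population found in many organs, had 10.8 and 9.22 TPM. Pdgfra, the PDGF receptor used to mark cardiac fibroblasts, had 8.98 and 10.6 TPM, which overlapped Pi16. Ddr2, a collagen receptor, had 7.21 and 8.39 TPM. Pdgfra stood 1.26 ± 0.0160 times above Ddr2 (SD, n = 2), with no overlap. Cd248 (endosialin) had 3.63 and 3.55 TPM and Thy1 3.73 and 2.54 TPM, so that Thy1 enclosed Cd248 in the gene table. By a second quantification made directly from reads Thy1 had 6.70 and 5.10 TPM and lay above Cd248, at 4.02 and 3.804 TPM. Fap (fibroblast activation protein) was lowest at 1.09 and 1.90 TPM, from 66 and 91 expected counts, and Pdgfra stood 6.92 ± 1.87 times above it.

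Of the transcription factors, Tcf21, the regulator that commits epicardial cells to fibroblasts, had 3.50 TPM in mouse 1 and 3.68 TPM in mouse 2, and Meox1, a homeobox factor known from activated fibroblasts, had 2.21 and 2.15 TPM. Tcf21 stood 1.65 ± 0.0905 times above Meox1 (SD, n = 2). The 2 cytoskeletal genes were far higher. Vim (vimentin), the intermediate filament of mesenchymal cells, had 97.4 and 102 TPM.

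Gsn (gelsolin), which cuts and caps actin filaments, was the highest member, at 333 TPM in mouse 1 and 336 TPM in mouse 2, above 98.3% of the detected protein-coding genes. It spans 35256380 to 35307892 on the plus strand of chromosome 2 in mm10 and has more than 1 start. A longer form of the protein with a signal peptide is secreted as plasma gelsolin, and a shorter one stays in the cytoplasm. In the transcript tables quantified from aligned reads, the transcript with 2340 coding bases had 320 and 333 TPM, and that with 2193 coding bases, which starts 26000 bases upstream, had 4.36 and 2.33 TPM. In the transcript tables quantified directly from reads the same 2 transcripts had 157 and 236 TPM for the longer coding sequence and 155 and 89.3 TPM for the shorter, and another, with 1704 coding bases and nearly the same upstream start, had 54.5 and 53.5 TPM. The summed Gsn level differed far less between the methods, at 388 and 382 TPM in the second. The share of the upstream start was thus not settled by these tables, while the gene's rank was. The RefSeq stretches around both starts are shown, the downstream one at chr2:35282130-35282429 and the upstream one at chr2:35256109-35256408, both on the plus strand. Capitals mark the same motifs and CCAAT or its reverse ATTGG.
Gsn downstream: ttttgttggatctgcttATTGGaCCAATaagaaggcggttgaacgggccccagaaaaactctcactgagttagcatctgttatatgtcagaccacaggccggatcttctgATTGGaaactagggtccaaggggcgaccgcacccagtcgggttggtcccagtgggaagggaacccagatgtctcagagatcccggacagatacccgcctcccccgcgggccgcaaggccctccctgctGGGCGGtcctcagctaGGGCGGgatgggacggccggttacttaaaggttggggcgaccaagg
Gsn upstream: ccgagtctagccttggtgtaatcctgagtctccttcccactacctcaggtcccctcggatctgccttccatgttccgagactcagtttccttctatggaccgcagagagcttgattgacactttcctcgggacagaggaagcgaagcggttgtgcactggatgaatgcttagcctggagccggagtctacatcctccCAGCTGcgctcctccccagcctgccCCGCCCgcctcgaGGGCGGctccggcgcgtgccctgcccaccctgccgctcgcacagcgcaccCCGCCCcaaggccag
The downstream stretch held CCAAT and GGGCGG, and the upstream stretch held GGGCGG and CAGCTG.

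All 6 of the other secreted proteins were detected. Htra3, a serine protease, had 37.7 and 39.2 TPM in mice 1 and 2. Complement component C3 had 30.2 and 35.1 TPM, and Igfbp4, which binds insulin-like growth factors, 26.9 and 32.3 TPM. The values of C3 and Igfbp4 overlapped. Igfbp6 had 11.8 and 12.2 TPM, and Igfbp4 stood 2.47 ± 0.271 times above it (SD, n = 2). Islr, known as meflin in fibroblast-like cells, had 6.85 and 7.31 TPM, and Serpinf1, which encodes PEDF, was lowest at 5.28 and 6.66 TPM.

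The epicardial and mesothelial members were the lowest group, with a median of 2.25 TPM in both mice, and 7 of 8 were detected. Upk3b, a uroplakin known from mesothelium, had 6.32 TPM in mouse 1 and 7.13 TPM in mouse 2. Msln (mesothelin), a surface glycoprotein of mesothelial cells, had 5.67 and 6.35 TPM, which overlapped Upk3b. Krt19, a keratin of simple epithelia, had 2.27 and 3.25 TPM. Muc16, a membrane mucin that binds mesothelin, had 2.22 and 2.54 TPM and overlapped both Krt19 and Aldh1a2. Aldh1a2, which makes retinoic acid, had 2.32 and 1.96 TPM. Wt1, a zinc finger factor of the epicardium, had 1.72 and 1.60 TPM, and Upk1b 1.22 and 1.47 TPM. Krt8, the partner of type I keratins in simple epithelia, was under 1 TPM in both mice, at 0.680 and 0.650 TPM from 39.2 and 42.7 expected counts. Upk3b stood 4.07 ± 0.553 times above Wt1 and 5.02 ± 0.233 times above Upk1b (SD, n = 2). The Upk3b start region, at chr5:136038246-136038545 on the plus strand, is shown as that of the highest gene of the group, with CATTCC, the reverse of GGAATG, in capitals.
Upk3b: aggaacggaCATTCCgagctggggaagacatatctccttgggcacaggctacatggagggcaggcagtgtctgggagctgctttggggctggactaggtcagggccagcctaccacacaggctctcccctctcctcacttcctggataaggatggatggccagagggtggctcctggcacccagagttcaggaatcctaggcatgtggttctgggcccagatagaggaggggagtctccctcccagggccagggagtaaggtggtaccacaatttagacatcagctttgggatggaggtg
No other of the searched motifs was in that stretch.

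The label of the gene list was set beside further markers of its cell types. Of 9 other epicardial and mesothelial genes, 7 reached 1 TPM in both mice, led by Gpm6a at 3.39 TPM in mouse 1 and 4.05 TPM in mouse 2, with Lrrn4 at 2.03 and 2.25 TPM, Tbx18 at 2.00 and 1.70 TPM and Dmkn lowest by its mean, at 0.720 and 0.320 TPM. In mouse 1 Bnc1 was lower than Dmkn, with 0.620 and 0.520 TPM in mice 1 and 2. These genes were low as well, with a median of 1.18 TPM in mouse 1 and 1.36 TPM in mouse 2 over the 9. Of 30 other fibroblast and matrix genes, 26 reached 1 TPM, led by Gpx3, a secreted glutathione peroxidase, at 85.5 and 94.2 TPM, Ltbp4 at 69.5 and 71.8 TPM and Timp3 at 60.0 and 66.8 TPM, while Fbn2, a second fibrillin, was lowest at 0.240 and 0.150 TPM. Of 8 genes listed for valve interstitial cells, 1 reached 1 TPM: Cytl1 had 12.2 and 11.3 TPM. The tissue is bulk, so the cells that express Cytl1 were not identified. The 7 others, Hapln1, Sox9, Acan, Col2a1, Chad, Twist1 and Col9a3, lay between 0.01 and 0.740 TPM. None of these 8 is among the 51, and members linked to valve cells, such as Vcan, Postn and Bgn, are also known from other fibroblasts. Of 9 genes of activated fibroblasts, 4 reached 1 TPM, Acta2 at 36.3 and 51.2 TPM, Tagln at 22.8 and 35.9 TPM, Ccn2 at 16.99 and 24.1 TPM and Col8a1 at 1.91 and 2.03 TPM, while Grem1 had no count in either mouse, which allows up to 3 counts in each. Acta2 and Tagln are also genes of smooth muscle cells. The other cells of the heart were present too: all 6 endothelial, all 6 pericyte and smooth muscle and all 6 macrophage genes reached 1 TPM, with summed levels of 175 and 183 TPM, 218 and 229 TPM, and 57.1 and 62.4 TPM in mice 1 and 2, and 1 of 4 Schwann cell genes did so.

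The difference between the mice was described on TMM-scaled expected counts for the 49 members with a mean count of at least 50. None was 2-fold apart or more, against 0.57% of 12453 genes (0.369% higher in mouse 1 and 0.201% higher in mouse 2). None was 1.5-fold apart, against 2.08% of those genes. The median log2 ratio of mouse 1 over mouse 2 was -0.027 over the members and -0.005 over all genes, and the median size of the log2 ratio was 0.084 and 0.078. Of the members, 18 were higher in mouse 1 and 31 in mouse 2 with TMM scaling, so that 63.3% were higher in mouse 2, against 52.0% of all genes. With spike-in scaling 3 (Fbn1, Thy1 and Aldh1a2) were higher in mouse 1 and 46 in mouse 2, which was 93.9% of the members, against 87.9% of all genes. Spike-in scaling moved the median log2 ratio of all genes to -0.177 and that of the members to -0.199. The members' distance from the median of all genes was -0.022 under TMM, DESeq2, total count and spike-in scaling alike, and 30 of the 49 lay under that median. For 16 members (32.7%) the 95% counting interval left out 0 with TMM scaling, against 19.6% of all genes. This share depends on the number of counts, for which the members and all genes were not matched. Of the 49, 46 lay within the 5th to 95th percentile of all genes, which ran from -0.25 to 0.31. These shares describe the 2 libraries, and the members were not tested against other genes. Each mouse is 1 library, so no test of a difference between them was possible, and the intervals cover counting error alone.

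The 5 members with the largest ratios were Upk1b, Fmod, Dpep1, Aldh1a2 and Thy1. Upk1b had 56 and 93 expected counts in mice 1 and 2, a log2 ratio of -0.50 with a 95% counting interval of -1.0 to -0.01. Fmod had 249 and 384 counts, a log2 ratio of -0.39 (-0.63 to -0.16). Dpep1 had 1068 and 1565 counts, a log2 ratio of -0.32 (-0.43 to -0.21). These 3 were lower in mouse 1. Aldh1a2 had 156 and 149 counts, a log2 ratio of 0.30 (-0.03 to 0.63), and Thy1 had 144 and 141 counts, a log2 ratio of 0.26 (-0.08 to 0.61), so that both were higher in mouse 1 with intervals that include 0. Fbn1 was higher in mouse 1 with an interval that did not, at 3104 and 3081 counts, a log2 ratio of 0.24 (0.17 to 0.32). The Fbn1 log2 ratio was smaller in TPM, at 0.068, and with spike-in scaling of the counts, at 0.072. By role, with TMM scaling, those higher in mouse 2 were 5 of 6 small leucine-rich proteoglycans, 5 of 6 other secreted proteins, 6 of 7 epicardial genes, 6 of 10 other matrix genes, 4 of 8 elastic fibre genes, 2 of 4 transcription factors and cytoskeletal genes and 3 of 8 surface proteins, beside the 52.0% of all genes. No difference between roles was tested. Spike-in scaling put a further 15 on the side of mouse 2: Lum, Fbln2, Eln, Mfap5, Sparc, Vcan, Tnxb, Dpt, Ddr2, Lrp1, Cd248, Pi16, Meox1, Gsn and Igfbp6.

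The lists of other cells spread over and under the members' median size of 0.084 in the log2 ratio. Among the genes with enough counts, the median size was 0.044 for pericytes and smooth muscle, 0.058 for endothelium, 0.075 for cardiomyocytes, 0.117 for the other fibroblast genes, 0.135 for macrophages and 0.208 for the other epicardial genes. It was 0.150 over 2 valve genes, 0.421 for 1 Schwann cell gene and 0.442 over 5 activated fibroblast genes. Over 3 adipocyte genes it was 0.913, and over 4 red blood cell genes 1.789. These sizes depend on the number of counts, for which the lists were not matched. The counting interval left out 0 for 0 of 7 other epicardial genes and 0 of 2 valve genes. It did so for 1 of 6 macrophage, 14 of 28 other fibroblast, 3 of 3 adipocyte and 4 of 4 red blood cell genes. The interval also left out 0 for 5 of 6 cardiomyocyte, 2 of 6 endothelial and 2 of 6 pericyte and smooth muscle genes. The same held for 3 of 5 activated fibroblast genes and the 1 Schwann cell gene, against 19.6% of all genes. The adipocyte genes Adipoq, Plin1 and Cfd had a median log2 ratio of -0.91, with Plin1 at 1.25 TPM in mouse 1 and 2.61 TPM in mouse 2 and a log2 ratio of -1.25. The summed level of the 4 adipocyte genes was 9.19 TPM in mouse 1 and 14.0 TPM in mouse 2, with Retn at 0.250 and 0.330 TPM. Acta2, Tagln and Ccn2 of the activated fibroblast list had log2 ratios of -0.51, -0.57 and -0.44, while Runx1 had -0.335 and Col8a1 -0.06. Acta2 and Tagln are smooth muscle genes as well. The pericyte and smooth muscle list was itself split, so its median hides part of it. Its smooth muscle genes Myh11 and Cnn1 had log2 ratios of -0.369 (-0.456 to -0.282) and -0.300 (-0.655 to 0.049). In TPM Cnn1 went the other way, at 4.29 in mouse 1 and 3.22 in mouse 2. Rgs5, Abcc9, Kcnj8 and Cspg4 had log2 ratios between -0.047 and 0.016. The part of all these genes in the members' ratios was not tested.

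**Figure D2:**
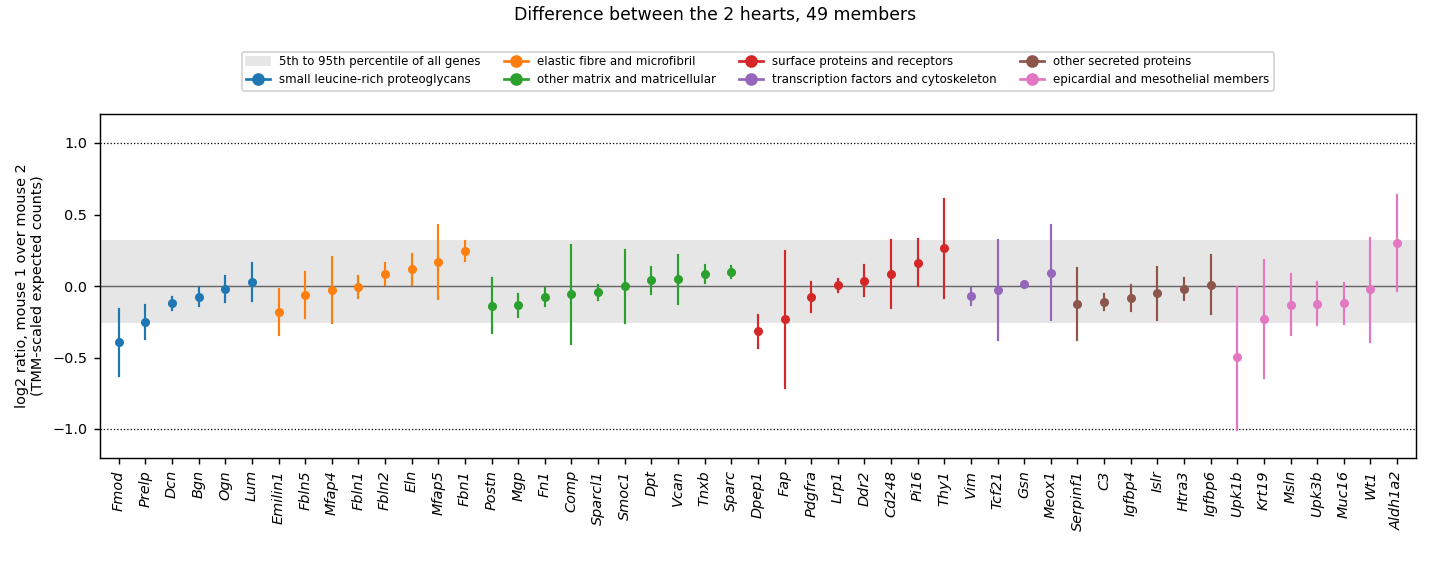
Log2 ratio of mouse 1 over mouse 2 from TMM-scaled expected counts for the 49 members with a mean count of at least 50, coloured by role; points are ratios, vertical lines are 95% counting intervals, the grey band is the 5th to 95th percentile of all genes and the dotted lines are 2-fold. No point reaches a dotted line, and Upk1b, Fmod and Dpep1 lie under the band.

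Levels from the transcript tables quantified directly from reads were higher than in the gene table for 43 members and lower for 8, with a median ratio of 1.11. Lrp1 had the lowest ratio, 0.807, with 23.4 and 22.2 TPM in mice 1 and 2 by the second method. Above 1.5 were Serpinf1 (2.01), Thy1 (1.88) and Mfap5 (1.65). Thy1 stood at 6.70 and 5.10 TPM by the second method, Serpinf1 at 11.2 and 12.8 TPM and Mfap5 at 12.8 and 13.3 TPM. For 37 of the 51 the mean level by the second method lay more than 1 SD between the mice away from that in the gene table. Among them were Sparc, with 163 and 160 TPM by the second method, and Htra3, with 52.6 and 53.6 TPM. No share over all genes stands beside these counts of 43, 8 and 37, so the shift cannot be called particular to the members. For some members the TPM ratio between the mice was larger than the count ratio. Emilin1 had 542 and 722 counts, a log2 ratio of -0.18, but a TPM log2 ratio of -0.59, and transcripts annotated as not protein coding made up 16.5% of its TPM in mouse 1 and 39.8% in mouse 2. Krt19 likewise had a count log2 ratio of -0.23 and a TPM log2 ratio of -0.52, with 32.2% and 56.9% of its TPM in such transcripts. Fap had a count log2 ratio of -0.23 and a TPM log2 ratio of -0.80, while such transcripts made up 26.6% and 30.7% of its TPM. The part of these transcripts in the TPM ratios was not tested.

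**Figure D3:**
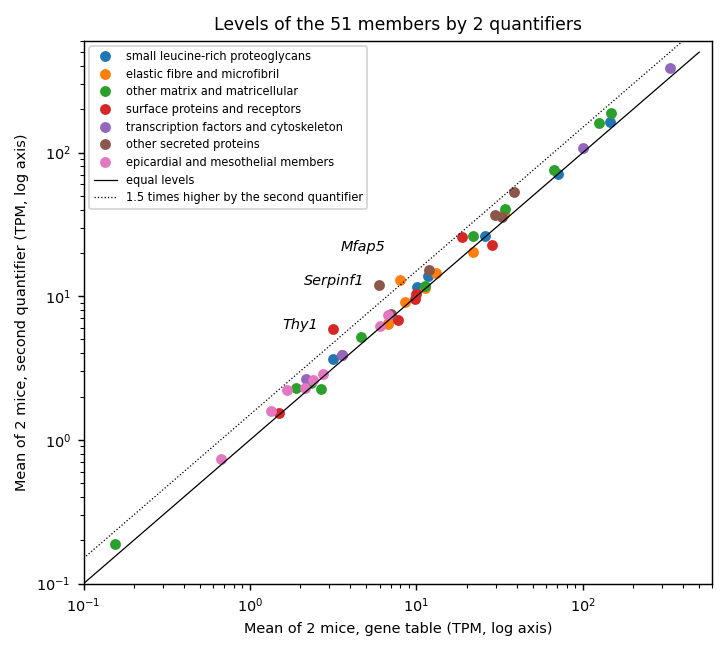
Mean TPM of the 2 mice for the 51 members in the gene table (horizontal, log axis) and by the second quantifier (vertical, log axis), coloured by role; the solid line marks equal levels and the dotted line a level 1.5 times higher by the second quantifier. Most points lie just above the solid line, and Serpinf1, Thy1 and Mfap5 lie above the dotted one.

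The most abundant transcript was the same by both methods for 31 of the 41 detected members with 2 or more transcripts (75.6%), against 75.8% of 10343 genes. The 10 that differed were Mfap4, Mfap5, Sparc, Fn1, Vim, Islr, Serpinf1, Igfbp4, Wt1 and Muc16. For Sparc the aligned tables put a transcript of 2115 bases first (92.4 and 85.6 TPM in mice 1 and 2) and the second method one of 2300 bases (77.7 and 80.4 TPM). For Vim they put first a transcript of 1777 bases (43.1 and 41.8 TPM) and one of 2193 bases (49.4 and 58.9 TPM). Both of these pairs are protein coding. For Mfap4 the aligned tables put a protein-coding transcript of 1722 bases first (5.41 and 5.73 TPM), which the second method listed at 0 in both mice while putting 5.75 and 5.98 TPM on one of 1770 bases annotated as a processed transcript. Mfap4 also overlaps an exon of Mapk7 on the other strand by 89 bases, and Mapk7 had 1.70 and 2.12 TPM. A first transcript that is not annotated as coding also appeared by the second method for Igfbp4, Serpinf1 and Fn1, the last of which is described with its exons. For Igfbp4 the aligned tables put a coding transcript of 3831 bases first (13.5 and 14.6 TPM) and the second method a processed transcript of 799 bases (17.1 and 21.2 TPM). For Serpinf1 they put first a coding transcript of 1832 bases (3.47 and 3.45 TPM) and a target of nonsense-mediated decay of 976 bases (4.26 and 4.89 TPM). The changes of Islr, Mfap5, Muc16 and Wt1 were between coding transcripts. Islr had one of 2076 bases first (5.66 and 5.51 TPM) or one of 2223 bases (6.53 and 7.28 TPM). Mfap5 had one of 1506 bases (3.04 and 2.52 TPM) or one of 425 bases (4.26 and 4.71 TPM). Muc16 had one of 25437 bases (0.820 and 0.910 TPM) or one of 1099 bases (1.14 and 1.01 TPM). A first transcript is therefore not firm for these members.

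Fibronectin, periostin, versican and Wt1 are known for coding exons that are spliced in or out, and the share of a gene's transcripts that include an exon can be read from the transcript tables. Fibronectin made by the liver for plasma lacks the exons EIIIA and EIIIB, while fibronectin made in tissues can hold either. Both exons are shown because they mark the tissue form. They lie on the minus strand of chromosome 1 in mm10, EIIIB at chr1:71613763-71614035 and EIIIA at chr1:71603660-71603929. The sequences are from GENCODE M21 transcripts, 5′ to 3′ on the coding strand, with the exon in capitals and 10 bases of the exons on either side in lower case.
EIIIB: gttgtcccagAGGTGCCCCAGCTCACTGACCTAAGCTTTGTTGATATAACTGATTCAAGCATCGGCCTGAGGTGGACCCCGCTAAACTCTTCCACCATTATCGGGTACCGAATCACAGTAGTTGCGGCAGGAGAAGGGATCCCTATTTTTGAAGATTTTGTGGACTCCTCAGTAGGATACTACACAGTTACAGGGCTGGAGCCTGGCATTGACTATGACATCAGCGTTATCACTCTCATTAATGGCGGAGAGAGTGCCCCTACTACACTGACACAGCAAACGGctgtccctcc
EIIIA: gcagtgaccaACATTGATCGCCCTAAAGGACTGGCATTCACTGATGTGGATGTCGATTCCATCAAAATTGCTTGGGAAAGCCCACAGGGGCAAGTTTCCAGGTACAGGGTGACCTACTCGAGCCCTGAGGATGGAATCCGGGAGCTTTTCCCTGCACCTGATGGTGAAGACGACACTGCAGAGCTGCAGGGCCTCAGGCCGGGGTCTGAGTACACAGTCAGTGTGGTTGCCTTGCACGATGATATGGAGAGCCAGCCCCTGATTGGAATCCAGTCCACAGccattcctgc
EIIIB was in 6.07% of the spanning Fn1 transcripts of mouse 1 and 1.08% of those of mouse 2 by the aligned tables, and in 4.78% and 0.743% by the second method. EIIIA was in 21.8% and 27.2% by the aligned tables and in 23.3% and 27.1% by the second method. EIIIA inclusion was above EIIIB inclusion in both mice and by both methods. In TPM, the aligned tables gave 0.84 in mouse 1 and 0.16 in mouse 2 to transcripts with EIIIB, and 13.0 and 14.7 to those without it. For Fn1 as a whole the first transcript was one of 1350 bases (4.67 and 5.26 TPM), or by the second method a retained intron of 495 bases (9.06 and 6.43 TPM), neither of them full length.

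Periostin exons 17 and 21 lie near the carboxyl end and are among those spliced in or out in periostin isoforms. Exon 17 is at chr3:54380412-54380492 (81 bases) and exon 21 at chr3:54385671-54385754 (84 bases), both on the plus strand, shown in the same way.
Postn exon 17: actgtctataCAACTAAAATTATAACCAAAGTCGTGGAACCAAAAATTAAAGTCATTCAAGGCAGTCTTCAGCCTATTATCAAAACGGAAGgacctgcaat
Postn exon 21: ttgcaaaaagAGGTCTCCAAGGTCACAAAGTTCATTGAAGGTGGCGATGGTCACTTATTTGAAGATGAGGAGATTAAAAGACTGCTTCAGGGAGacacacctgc
Exon 17 was in 23.1% of the spanning transcripts in mouse 1 and 26.7% in mouse 2 by the aligned tables, and in 23.6% and 31.6% by the second method. Exon 21 was in 27.6% and 31.1% by the aligned tables, and in 27.3% and 31.6% by the second method. Neither exon was in most of the periostin transcripts of either heart by either method.

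Wt1 has an alternative exon of 51 bases, exon 5, which adds amino acids before the zinc fingers, and an alternative splice site that adds 9 bases coding for lysine, threonine and serine (KTS) between zinc fingers. The 51-base exon is at chr2:105144142-105144192 and the 9 bases are at chr2:105170010-105170018, both on the plus strand. Capitals mark the exon in the first sequence and the 9 bases in the second, and the last is the same junction without them.
Wt1 exon 5: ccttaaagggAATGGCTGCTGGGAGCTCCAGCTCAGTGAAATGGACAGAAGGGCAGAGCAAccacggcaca
Wt1 with KTS: actcatacagGTAAAACAAgtgaaaagcc
Wt1 without KTS: actcatacaggtgaaaagcc
The 51-base exon was in 44.2% of the spanning transcripts in mouse 1 and 55.6% in mouse 2 by the aligned tables, and in 63.7% and 57.7% by the second method. The 9 bases were in 69.5% and 73.5% by the aligned tables, and in 56.5% and 63.1% by the second method. The form with KTS was thus the larger share in both mice by both methods, whereas the 51-base exon was on both sides of 50%. With 118 and 141 expected counts over the whole of Wt1, few reads can lie on either junction, and the first transcript itself was one of 2395 bases (0.480 and 0.590 TPM) or, by the second method, one of 3090 bases (0.974 and 0.705 TPM).

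Versican differs by 2 large exons that carry the sites for chondroitin sulfate chains, alpha (2880 bases, at 89702918 to 89705797 on chromosome 13) and beta (5217 bases, at 89688285 to 89693501). V0 holds both, V1 holds beta, V2 holds alpha and V3 holds neither. Of the TPM of the 4 forms, V1 took 45.8% in mouse 1 and 44.6% in mouse 2 by the aligned tables, and 60.2% and 62.3% by the second method. V0 took 21.6% and 27.5% by the aligned tables, and 25.5% and 36.8% by the second method. V2, the form known from brain, was listed at 0 by both methods in both mice. V1 was the largest share throughout. V3 took 32.6% and 28.0% by the aligned tables but 14.3% and 0.886% by the second method, so its share depended on the method and, in the second, on the mouse.

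**Figure D4:**
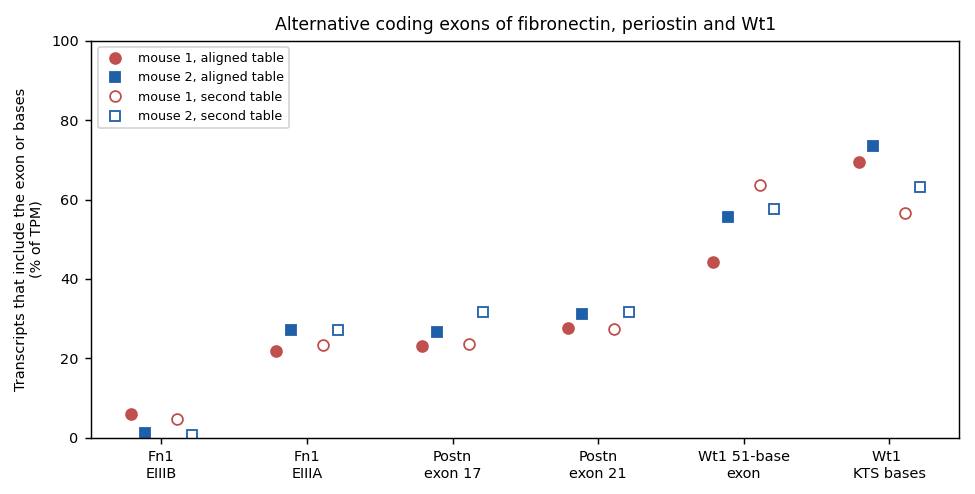
Percent of spanning transcript TPM that includes each alternative exon or stretch of Fn1, Postn and Wt1; circles are mouse 1, squares are mouse 2, filled symbols are the tables quantified from aligned reads and open symbols those quantified directly from reads. EIIIB lies lowest, EIIIA and the Postn exons lie between 21.8% and 31.6%, and the Wt1 stretches lie higher with more distance between methods.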

How the data were processed

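Total RNA-seq was examined for 2 mouse heart libraries. For each, the authors deposited a gene table that holds FPKM, TPM, posterior mean TPM and expected counts, per the file headers. Of 2 transcript tables the authors deposited per library, one was quantified from aligned reads and the other, with TPM and estimated counts, directly from reads, per the deposited file descriptions. The build is mm10 with GENCODE M21, per the labels and descriptions. The aligner, the quantifiers and the strand setting were not given in the sources used here. Of the members, 10 overlap an exon of a gene on the other strand, and 1 such partner (Mapk7) reached 1 TPM. The members and lists were chosen with earlier results of these data known.

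Levels are mean ± SD of TPM over 2 mice. TMM factors came from rounded expected counts with edgeR 4.0.16 in R 4.3.3. Ratios used a prior count of 0.5 and a minimum mean count of 50, with exact Clopper-Pearson 95% intervals, and the calculation was tested on simulated data. Reads carry no molecular identifiers, so these intervals and the 3-count floor reflect counting error alone. A gene's level by the second method is the sum over its transcripts. That the libraries are separate animals rests on their labels, so the spread may be partly technical. Inclusion is the TPM of transcripts with an exon over that of all transcripts spanning it. All members are named, by role, and of the fibroblast, activated fibroblast, valve and epicardial lists the 3 highest and the lowest gene; a few further list genes were picked with their values in view. Alternatives tried were the second method, FPKM, posterior mean TPM, TPM rescaled over nuclear coding genes, scaling by DESeq2 1.42.0, by spike-ins or by total count, other priors and thresholds, and leaving out each mouse. Figures and tables used Python 3.11.15 (pandas 2.3.3, numpy 2.4.6, scipy 1.17.1). RefSeq start regions were not matched for Dcn, Lum, Eln, Mfap4, Mfap5, Sparcl1, Fn1, Comp, Cthrc1, Smoc1, Mgp, Fap, Thy1, Cd248, Meox1, Wt1, Msln, Krt19 and Upk1b.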

Additional observations from a re-analysis of the deposited data

How the results depend on the processing

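The median level of the members was 8.52 TPM, against 10.5 TPM by the second method and 8.625 TPM as posterior mean TPM. It was 21.8 TPM after rescaling to nuclear protein-coding genes, a construction that raises every gene. In FPKM, a unit with another total, it was 6.735. Leaving out each mouse gave 8.08 to 8.95 TPM. The count at 1 TPM ran from 44 of 51 at a threshold of 2 TPM to 50 of 51 at 0.5 TPM. The median log2 ratio was -0.027, against -0.199 with spike-in scaling, which moved all genes alike. With no minimum count, 1 member, Cthrc1 with 2 and 6 counts, passed 2-fold, with a log2 ratio of -1.18 and a counting interval of -4.69 to 1.13. The same first transcript was found for 14 of 18 members at 10 TPM, where fewer genes enter, and for 28 to 32 with each mouse left out. Msln stood at 0.894 times Upk3b in TPM but at 1.01 times in posterior mean TPM, and the cause was not tested. The other 23 pairs kept their direction under the per-length alternatives and with each mouse left out. By counts, which are not per length, 4 of them turned: Eln over Fbn1 (0.4675), Mfap5 over Mfap4 (0.804), Mgp over Sparc (0.2985) and Tcf21 over Meox1 (0.907). No paired analysis was possible because the samples form 1 group. Depth limits Cthrc1, Krt8 and the Wt1 exons.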

Other observations

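Col3a1, a fibrillar collagen gene of the other fibroblast list, had 40.7 TPM in mouse 1 and 29.8 TPM in mouse 2, a log2 ratio of 0.32 with a 95% counting interval of 0.26 to 0.37. Its expected counts, 5817.87 and 5489.61, were not whole, so its level is less certain. Col5a1, of another fibrillar collagen, had 6.55 and 6.14 TPM and a log2 ratio of 0.25 (0.15 to 0.35). In the same list Col1a1, Col1a2, Col6a1, Col6a2 and Col15a1 also had higher scaled counts in mouse 1. Their log2 ratios ran from 0.108 to 0.216, with intervals that left out 0. Col14a1 went the other way, at -0.052 (-0.212 to 0.107). In TPM Col15a1 was not higher in mouse 1, at 14.06 in mouse 1 and 14.15 in mouse 2. Timp2, an inhibitor of matrix metalloproteases, had 33.0 and 38.0 TPM and a log2 ratio of -0.15 (-0.22 to -0.08). Myh11, the smooth muscle myosin, had 9.16 and 12.2 TPM and a log2 ratio of -0.37 (-0.46 to -0.28). The ratios use TMM scaling, the genes were chosen after their values were seen, and each mouse is 1 library. Spike-in scaling moved the median log2 ratio of all genes from -0.005 to -0.177. Ratios of these genes under it are not given, so the smaller ones may change sign.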
